A study of Saccharomyces cerevisiae with 7 samples.

Results

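The ribosomal stalk is a flexible protein arm of the large ribosomal subunit, and the 5 genes that encode it in Saccharomyces cerevisiae, RPP0, RPP1A, RPP1B, RPP2A and RPP2B, are described here after growth in simulated asbestos mine drainage. They were taken by gene symbol from the annotation that pairs probesets with genes, and are 5 of the 5368 genes that have a usable probeset. A probeset is a set of short array probes for a transcript. Where a gene has several, that with the highest mean over all 7 arrays was to be kept, but each stalk gene had exactly 1. Probesets were thus chosen by a mean that does not use the media, but the family was taken up with the large difference of RPP2A in these same arrays known. The difference of RPP2A between the media is therefore given as a description with no test.

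The yeast was NRRL Y-12632 with the genotype cir+, grown with shaking at 30 °C for 24 h in 7 separate cultures. The 4 mine drainage cultures grew in yeast extract peptone dextrose (YPD) media made with filtered water from asbestos mine tailings, and the 3 control cultures in YPD media made with deionized water. All were inoculated from 1 culture in control media, so the spread between arrays covers the cultures after inoculation and their processing. The mine drainage media had a higher pH and far more magnesium than the control media, so the comparison is between whole media and not single components. Values are Robust Multichip Average (RMA) signals on a log2 scale from Affymetrix Yeast Genome 2.0 arrays, so a difference of 1 is a doubling.

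In the stalk, P0 (RPP0) binds ribosomal RNA together with the protein uL11 and carries pairs of the small acidic proteins P1 and P2. Yeast has 2 forms of each, P1 alpha (RPP1A), P1 beta (RPP1B), P2 alpha (RPP2A) and P2 beta (RPP2B), and the preferred pairs are P1 alpha with P2 beta and P1 beta with P2 alpha. All end in a like acidic tail, which recruits the GTPases of translation to the ribosome and stimulates their GTP hydrolysis. P0 is essential for growth, whereas yeast lives without P1 and P2.

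Over the 5498 probesets that name S. cerevisiae genes, 795 were higher and 942 lower in mine drainage at an adjusted p under 0.05 from limma, which fits a linear model per probeset and moderates its error with that of the others. These are 14.5% and 17.1% of the probesets and 31.6% together, so a call was common, and the median difference over all probesets was -0.034. A measure of RNA and copying quality, the signal of 3′ minus 5′ probesets averaged over 11 control transcripts, ran from 0.36 to 0.71 on the mine drainage arrays and from 0.71 to 1.02 on the control arrays. It therefore moved with the groups, as did the mean signal of ribosomal RNA probesets (11.86 to 12.08 in mine drainage and 11.44 to 11.68 in control), and the part of either in the results was not tested except where a value is given. Control replicate 1 had the lowest 3′ to 5′ difference of the controls, and mine drainage replicate 2 the highest of its group. The signals show relative RNA abundance, and ribosome or protein levels were not measured.

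RPP2A carried the largest difference of the family by far. Its signal was 10.23, 10.59, 10.65 and 10.59 on mine drainage arrays 1 to 4, against 9.56, 8.46 and 7.98 on control arrays 1 to 3. The groups were far apart, and the mine drainage arrays lay close together while the controls were spread over 1.59 log2 units. The mean was 10.52 ± 0.19 (SD, n = 4) in mine drainage and 8.67 ± 0.81 (SD, n = 3) in control, a difference of 1.85 (standard error 0.31) or 3.60-fold. Of all 5498 probesets it had the third largest positive difference and also the third largest SD among the control arrays. Its difference and its control spread were thus both large, and the fold depends on which controls are counted. The family was taken up with that difference known, so its rank is no separate result. Without control replicate 1 the difference was 2.30 (4.92-fold), and without control replicate 3 it was 1.50.

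**Figure D1:**
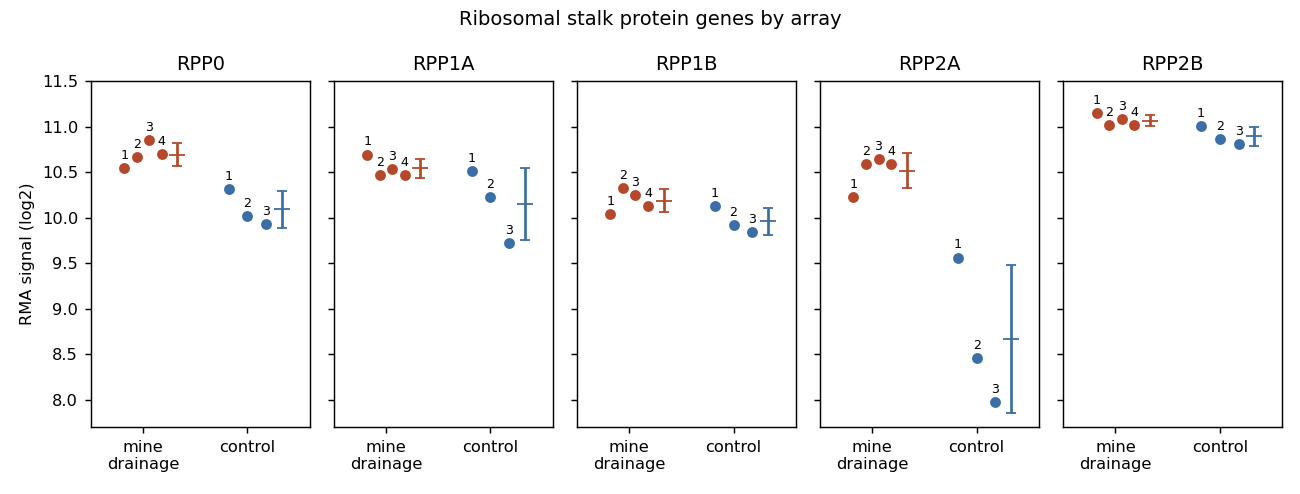
RMA signal (log2) of the 5 stalk genes on each array, mine drainage left of control, with points numbered by replicate and bars showing the mean ± SD (n = 4 and n = 3). The RPP2A controls run from 7.98 to 9.56 below mine drainage arrays at 10.23 to 10.65, while the groups of the other genes lie much closer. Levels of different genes come from different probes and are not comparable.

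RPP0 was the other stalk gene with a clear difference, and of the 4 stalk genes tested it was the single one that rose at an adjusted p under 0.05 from limma, beside 14.5% of all probesets. None of the 4 fell, and none had all mine drainage arrays below all controls, as 20.5% of all probesets did. Its signal was 10.55, 10.67, 10.85 and 10.70 on the mine drainage arrays, against 10.32, 10.02 and 9.93 on the control arrays. The groups did not overlap, with control replicate 1 the nearest to mine drainage. The means were 10.69 ± 0.13 (SD, n = 4) in mine drainage and 10.09 ± 0.20 (SD, n = 3) in control, a difference of 0.60 (standard error 0.12, 1.52-fold, adjusted p = 0.00718 from limma). RPP0 remained past the threshold whichever array was left out, with differences of 0.52 to 0.71.

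The P1 genes differed less than the spread of the test could separate. RPP1A had 10.69, 10.47, 10.54 and 10.47 in mine drainage, against 10.51, 10.22 and 9.72 in control. Control replicate 1 lay within the range of the mine drainage arrays, and replicate 3 lay far below all others. The difference was 0.39 (95% interval 0.02 to 0.77, adjusted p = 0.0988 from limma). This value depended on which control arrays were counted. It was 0.57 without control replicate 1 (adjusted p = 0.022 from limma) and 0.18 without control replicate 3. Without control replicate 1, 15.1% of all probesets were higher. RPP1B had 10.05, 10.33, 10.25 and 10.13 in mine drainage, against 10.13, 9.92 and 9.84 in control. Here too the groups overlapped, as control replicate 1 lay above mine drainage replicate 1 and level with replicate 4. The difference of RPP1B was 0.23 (95% interval -0.02 to 0.47, adjusted p = 0.14 from limma).

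RPP2B, the other P2 gene, had the smallest difference of the 5. Its signal was 11.15, 11.02, 11.08 and 11.02 in mine drainage, against 11.01, 10.86 and 10.81 in control. All mine drainage arrays were above all controls, but replicates 2 and 4 were above control replicate 1 by less than 0.01. The groups failed to overlap in the same direction for 17.7% of all probesets. The difference was 0.17 (95% interval -0.04 to 0.38, adjusted p = 0.18 from limma). After a further quantile normalization over the S. cerevisiae probesets the differences of RPP2B and RPP1B were 0.08 each, that of RPP0 was 0.47 (adjusted p = 0.0121 from limma) and that of RPP2A was 1.78.

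The alpha and beta forms of P2 differed unequally between the media, while for those of P1 no such difference passed a test. Within each array, the RPP2A signal minus the RPP2B signal was -0.92, -0.43, -0.43 and -0.42 in mine drainage, against -1.44, -2.40 and -2.84 in control. Only the change of such a pair difference between media can be read, since the paralogs have different probes. It was 1.68 for P2 (mine drainage -0.55 ± 0.24 and control -2.23 ± 0.71, SD), given as a description. For P1, RPP1A minus RPP1B was 0.36 ± 0.21 (SD, n = 4) in mine drainage and 0.19 ± 0.27 (SD, n = 3) in control, a change of 0.17 (exact permutation test over 35 splits of the arrays, two-sided, p = 0.514, where the smallest possible is 0.0286).

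As a scale for the P2 pair, 38 pairs of paralogous genes of other cytosolic ribosomal proteins were measured with separate probesets. Their pair differences changed by a median of 0.21 in absolute size and at most by 0.74, for RPL14A minus RPL14B, where the B form had the larger difference. No pair exceeded the 1.68 of RPP2A minus RPP2B, and 22 exceeded the 0.17 of RPP1A minus RPP1B. Because the family was taken up with the large RPP2A difference known, the place of the P2 pair is no separate result. A further 9 pairs were left out because the study's gene table lists a probeset of theirs for both paralogs. Shared probes would bring paralogs closer, and which of the 38 pairs also share probes was not tested.

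**Figure D2:**
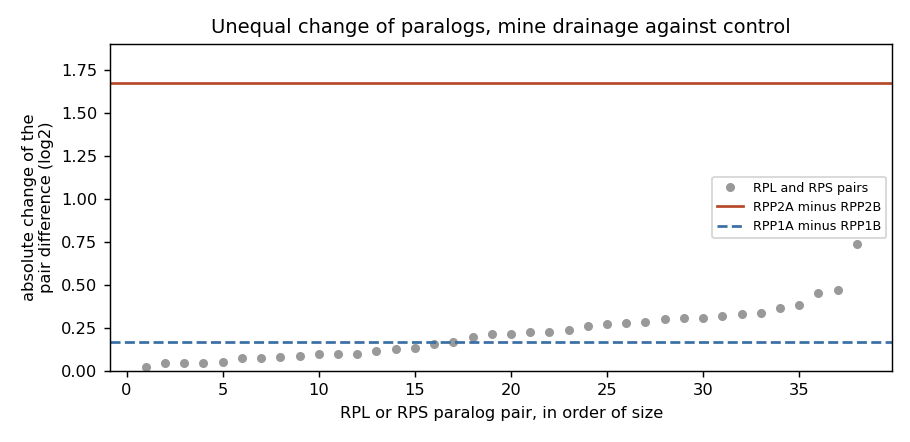
Absolute change between mine drainage and control of the within-array difference of paralogs (log2), for 38 pairs of RPL or RPS genes in order of size (points), with RPP2A minus RPP2B as a solid line and RPP1A minus RPP1B as a dashed line. The P2 pair, at 1.68, lies above the largest other pair, at 0.74. The family was taken up with the large RPP2A difference known.

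The control arrays differed among themselves in the same sense for all 5 stalk genes. In each, control replicate 1 was the highest control and replicate 3 the lowest, an order that 22.7% of all probesets showed. The same order held for 45 of 64 large subunit genes and 26 of 49 small subunit genes. Replicate 1 stood between the other controls and mine drainage: of the distance from the mean of control replicates 2 and 3 to the mine drainage mean, it had covered 0.47 for RPP0, 0.59 for RPP2A, 0.75 for RPP2B, 0.80 for RPP1B and 0.94 for RPP1A. Over all probesets past the threshold the median was 0.33, but RPP1A, RPP1B and RPP2B did not pass. For these 3 genes it is therefore an unlike set. The 3′ to 5′ difference, at 0.71, 0.82 and 1.02 on control arrays 1 to 3, ran opposite to the RPP2A signal among the controls. Among the mine drainage arrays it did not: replicate 1 had both the lowest 3′ to 5′ difference, 0.36, and the lowest RPP2A signal. In a fit that also holds this measure as a covariate, RPP2A differed by 1.39, RPP0 by 0.53 (adjusted p = 0.14 from limma), RPP1B by 0.26, RPP2B by 0.043 and RPP1A by -0.039. In that fit 30 probesets were higher and 20 lower on the whole array.

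Some other genes of the cytosolic ribosome were also higher in mine drainage. Of 64 measured large subunit (RPL) genes 26 rose and none fell (40.6% higher), and of 49 small subunit (RPS) genes 8 rose and none fell (16.3% higher), against 14.3% higher over all genes (adjusted p under 0.05 from limma), with median differences of 0.28 and 0.17 beside a median of -0.038 over all genes. The median over the 5 stalk genes was 0.39. The largest RPL differences, 1.05 and 0.97, belong to the probesets annotated as RPL23A and RPL18B, and the largest RPS differences to RPS7A (0.94) and RPS8A (0.83), and all but that of RPS7A are listed for both paralogs in the study's gene table. Without probesets listed for both, 19 of 57 RPL and 5 of 44 RPS genes rose. The RPL and RPS counts were 8 and 3 without control replicate 2, 12 and 5 without control replicate 3, and 33 and 16 without control replicate 1. After a further quantile normalization they were 15 and 7, and 1 RPS gene fell. Over all 5498 probesets, with 795 higher in the main fit, the numbers higher in these settings were 324, 415, 832 and 831. The RPL and RPS counts were 7 and 3 with the unmoderated test per probeset that the study's methods name, where 362 of all probesets were higher. They were 0 and 0 with the 3′ to 5′ covariate, which moved with the groups and left 30 of all probesets higher.

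Set among the 113 RPL and RPS genes, RPP2A had a larger difference than any of them. The family was taken up with that difference known, so its rank is no separate result. Of the 113 genes, 13 exceeded RPP0, 29 RPP1A, 56 RPP1B and 65 RPP2B. Both P1 genes and RPP2B therefore lay inside the body of the ribosomal protein genes. By span on the chromosome, which can differ from the length of the transcript, RPP1A and RPP2A have 321 bases each and RPP2B has 333. RPP1B spans 622 and RPP0 939 bases. The 82 measured genes of 300 to 350 bases by this span, RPP1A, RPP2A and RPP2B included, had a median difference of -0.034. After subtraction of a trend with this gene length the differences were 1.85 for RPP2A, 0.57 for RPP0, 0.39 for RPP1A, 0.18 for RPP1B and 0.17 for RPP2B.

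**Figure D3:**
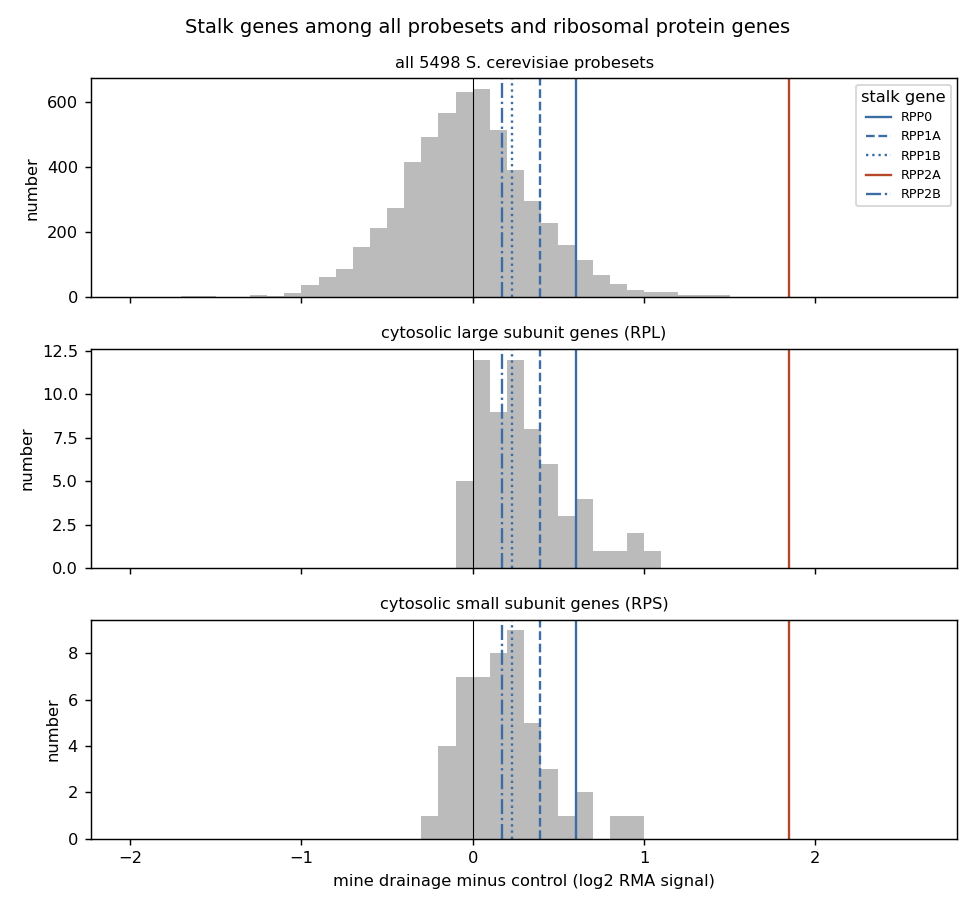
Number of probesets by difference between mine drainage and control (log2 RMA signal, bins of 0.1), for all 5498 S. cerevisiae probesets, the RPL genes and the RPS genes, with the 5 stalk genes as vertical lines. RPP2A, at 1.85, lies beyond every RPL and RPS gene, while RPP1A, RPP1B and RPP2B lie among them. The family was taken up with the large RPP2A difference known.

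The base of the stalk is formed by P0 and uL11, which yeast makes from RPL12A and RPL12B. The probeset annotated as RPL12A had 10.42, 10.38, 10.32 and 10.39 in mine drainage, against 10.18, 9.86 and 9.62 in control, and rose by 0.49 (adjusted p = 0.02 from limma). That of RPL12B differed by 0.19 (95% interval -0.02 to 0.40, adjusted p = 0.146 from limma). The first of these is listed for both genes in the study's gene table, so the paralogs cannot be told apart. Its call was lost without control replicate 2, control replicate 3 or mine drainage replicate 4 (differences between 0.36 and 0.64 over all arrays left out in turn) and after a further quantile normalization (0.36, adjusted p = 0.0539 from limma).

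Genes of stalk assembly and late maturation were called in both directions, and 10 genes are too few for precise shares. MRT4 encodes the nuclear relative of P0 that holds its place on the maturing subunit, and its signal was 9.25 ± 0.07 (SD, n = 4) in mine drainage and 9.26 ± 0.04 (SD, n = 3) in control. YVH1, the phosphatase that releases Mrt4, had 6.79, 7.04, 6.69 and 6.77 in mine drainage, against 6.72, 6.28 and 6.05 in control, a rise of 0.47 (adjusted p = 0.0456 from limma) with overlapping groups. Of 10 genes of stalk assembly and late maturation of the large subunit, 1 rose and 3 fell, beside 14.5% higher and 17.1% lower over all probesets, with a median difference of 0.05. Those that fell are REI1, a factor of the last cytoplasmic steps (by 0.74 on the log2 scale), NMD3, the nuclear export adaptor of the subunit (by 0.52), and LSG1, the GTPase that releases Nmd3 (by 0.39). Each of these 4 calls was lost in some fits without an array, and all 4 were lost without control replicate 2, without control replicate 3 and with the 3′ to 5′ covariate.

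Genes of translation factors, mainly of elongation, termination and recycling, were listed as well, and not all of these factors act at the stalk. Of 15 measured genes 6 rose and none fell, beside 14.5% higher over all probesets, and 9 of the 15 had a positive difference, with a median of 0.14. EFB1, the nucleotide exchange factor of the elongation factor eEF1A, had 10.36, 10.48, 10.62 and 10.54 in mine drainage, against 10.10, 9.68 and 9.56 in control, and rose by 0.72 (adjusted p = 0.00618 from limma). RLI1, the ATPase that splits ribosomes after termination, rose by 0.53, and SUP45, the release factor that reads stop codons, by 0.48. ANB1, the eIF5A gene known from low oxygen, rose by 0.62, and its close paralog HYP2 by 0.39, and how far their probes tell them apart was not tested. TEF4, a subunit of the exchange factor complex, rose by 0.34. SUP35, the GTPase partner of Sup45, and FUN12, the GTPase eIF5B of subunit joining, had differences of -0.047 and -0.078, which did not pass. The GTPases eEF1A and eEF2 are encoded by gene copies whose probesets are shared, and are not named. EFB1 and RLI1 kept their calls whichever array was left out, while the number of rising factors was 2 without control replicate 2, 3 without control replicate 3, 3 with the unmoderated test and 0 with the 3′ to 5′ covariate (EFB1 adjusted p = 0.15 and RLI1 adjusted p = 0.102 from limma). Over all 5498 probesets, with 795 higher in the main fit, the numbers higher in these settings were 324, 415, 362 and 30.

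Casein kinase 2 phosphorylates the tails of the stalk proteins, and the genes of its subunits went both ways. Of 4 genes 2 rose and 1 fell, beside 14.5% higher and 17.1% lower over all probesets. Of the catalytic subunits, CKA2 rose by 0.47 (adjusted p = 0.023 from limma) and CKA1 had the same mean signal, 9.05, in mine drainage and in control. Of the regulatory subunits, CKB2 rose by 0.33 and CKB1 fell by 0.44 (adjusted p = 0.0268 and 0.0157 from limma). All 3 calls were lost without control replicate 2, without control replicate 3 and with the 3′ to 5′ covariate. Over all 5498 probesets, 324, 415 and 30 were higher in these settings, and 364, 446 and 20 lower.

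The stalk is also known to activate Gcn2, the kinase that senses uncharged tRNA and slows initiation. GCN2 had 6.50, 6.35, 6.48 and 6.31 in mine drainage, against 7.15, 7.33 and 7.48 in control. It fell by 0.91 (adjusted p = 0.00177 from limma) with the groups well apart. YIH1, which competes with Gcn2 for the activator Gcn1, had 7.87, 7.14, 7.18 and 7.48 in mine drainage, against control arrays between 5.47 and 6.56, a rise of 1.41 (adjusted p = 0.00495 from limma). Its control arrays stood in the same order as those of RPP2A, an order shown by 3 of the 5 genes named here and 22.7% of all probesets. GCN20, the partner of Gcn1, rose by 0.48 (adjusted p = 0.0249 from limma, and lost without control replicate 2 or control replicate 3, among others), whereas GCN1 (0.28) and GCN4, the transcription factor downstream (0.13), did not pass. Of the 5 genes 2 rose and 1 fell, beside 14.5% higher and 17.1% lower over all probesets. GCN2 and YIH1 kept their calls whichever array was left out. In the fit with the 3′ to 5′ covariate YIH1 differed by 0.57 (adjusted p = 0.101 from limma). In that fit GCN2 differed by -0.82 (adjusted p = 0.0575 from limma). With the unmoderated test 0 of the 5 genes rose, but the fall of GCN2 still passed the threshold. Over all 5498 probesets, 362 were higher and 368 lower with that test.

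Of 9 regulators of ribosomal protein genes, 2 rose and none fell (22.2% higher), near the 14.5% higher over all probesets. SCH9, the growth control kinase, rose by 0.46 (adjusted p = 0.0103 from limma), also without any single array but not with the 3′ to 5′ covariate (0.25, adjusted p = 0.258 from limma), and HMO1, a DNA-bending protein at these promoters, by 0.56 (adjusted p = 0.0289 from limma, lost without any array other than control replicate 1). RAP1, FHL1 and IFH1, which together bind most of these promoters, had differences of 0.17, 0.044 and 0.49, none past the threshold. The mitochondrial ribosome has a stalk of its own. MNP1, its counterpart of P1 and P2, rose by 0.54 (adjusted p = 0.0373 from limma) with overlapping groups, and this call was lost in 5 of 7 fits without an array, among them those without control replicate 2 and control replicate 3. MRPL11, the counterpart of P0, and MRPL19, that of uL11, had differences of -0.17 and 0.25 and did not pass.

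**Figure D4:**
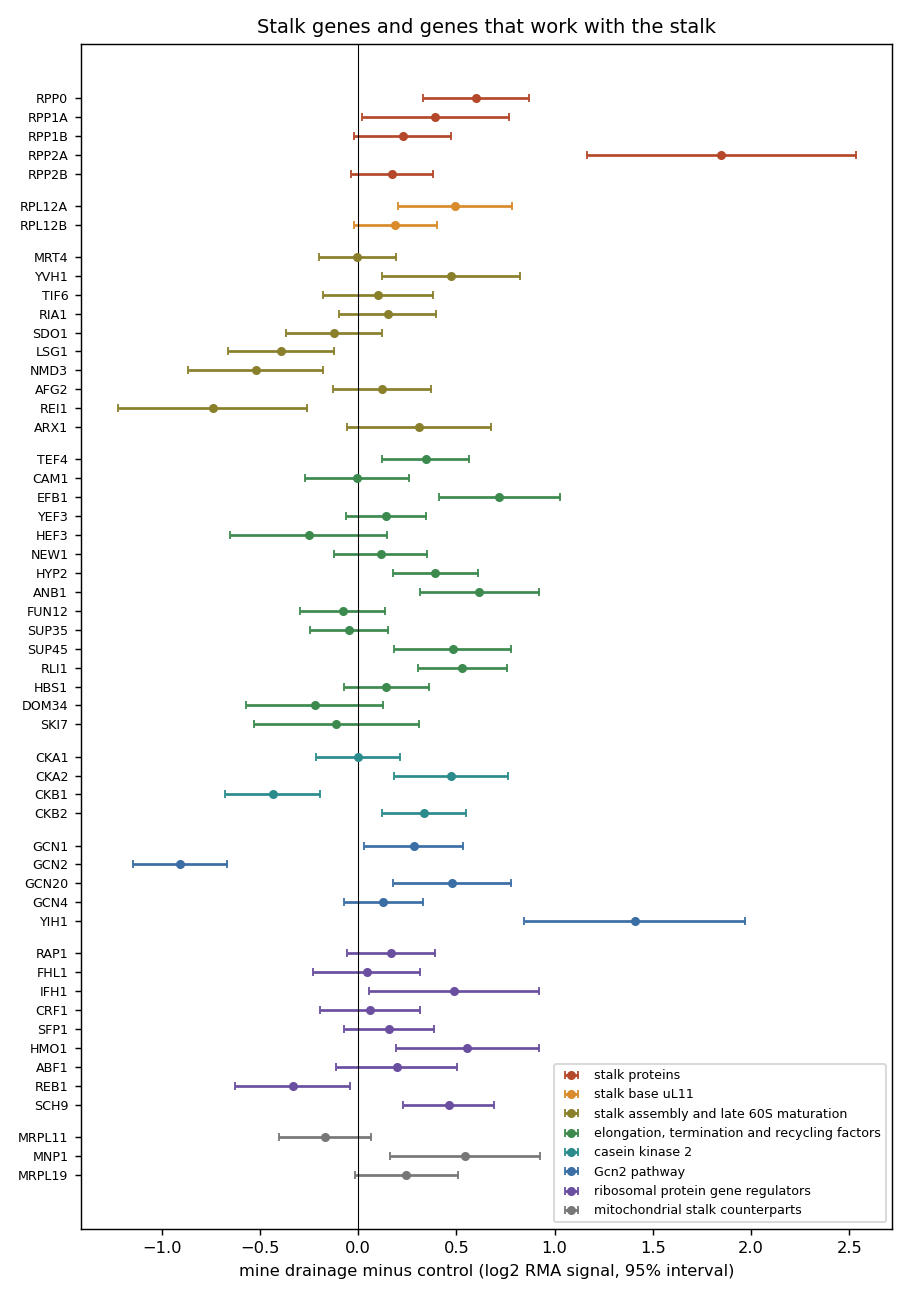
Difference between mine drainage and control (log2 RMA signal) with 95% intervals from limma over 7 arrays. Genes are those of the stalk and of 7 other lists, which include regulators of ribosomal protein genes and mitochondrial counterparts. RPP2A (1.85), YIH1 (1.41) and EFB1 (0.72) lie far to the right, and GCN2 (-0.91) and REI1 (-0.74) to the left. The family was taken up with the large RPP2A difference known, so the interval of RPP2A is no test.

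The genes with the signal pattern most like RPP2A over the 7 arrays, by Pearson correlation, were RPL33A (0.997), EFB1 (0.995), GAS1 (0.994), LHP1 (0.994) and VOA1 (0.994). They encode a large subunit protein, the exchange factor named above, a cell wall glucan enzyme, the yeast La protein and an assembly factor of the vacuolar ATPase. These values rest on 7 points in 2 groups and describe likeness only. All 5 genes had smaller differences than RPP2A, from 0.67 for RPL33A to 0.88 for LHP1.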

How the data were processed

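The authors deposited log2 signals of Affymetrix Yeast Genome 2.0 arrays, made with the Robust Multichip Average (background correction, quantile normalization, summarization of probes) at default settings in Partek Genomics Suite. Quantile normalization brings all arrays to the same distribution, so only relative changes can be seen. RNA was amplified and labelled as cDNA with NuGEN kits. No hybridization batch is given in the sources used here. The number of arrays limits the precision.

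Groups came from the sample labels. Probesets were named through the platform's gene annotation and an R64 gene table of S. cerevisiae. Identifiers ending in _s_at or _x_at were not used for named genes. Mine drainage minus control was tested with limma 3.58.1 in R 4.3.3 (default settings, two-sided, Benjamini-Hochberg over 5498 probesets, no filter, all 7 arrays), after a test on simulated data. A pair difference was compared with an exact permutation test (scipy 1.17.1). The members, gene lists and tests were chosen with earlier results of these data known. Genes named are the 5 members, RPL12A, RPL12B, MRT4, YVH1, all of lists with 5 or fewer genes, up to 4 called genes with the largest differences in longer lists, 2 each of RPL and RPS, the 5 most like RPP2A, and chromosomal neighbours. HYP2, TEF4, SUP35, FUN12, RAP1, FHL1 and IFH1 were added after their values were seen. The supplement's gene table was used only to see which probesets it lists for several genes, and is held here in part. Genes of the 2-micron plasmid, which cir+ strains carry, are not named in the annotation used. EFL1 is listed under RIA1. Alternatives were the study's one-way ANOVA, other limma settings, further normalization, a dim filter, all probesets of the array, a replicate block, leaving out each array, a gene length trend, the 3′ to 5′ covariate and a fold limit. No sequences are printed, since none were used here.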

Additional observations from a re-analysis of the deposited data

Results flagged for a closer look

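Mine drainage replicate 1 stood apart from the other mine drainage arrays for RPP2A. Its signal of 10.23 lay below the rest, with a gap to the nearest array that was 0.85 of the range of the 4 arrays, above the 95% limit for a group of this size. For RPP2A minus RPP2B within arrays, the same replicate had -0.92, with a gap of 0.981 of the range. Both values share the RPP2A signal. Chance gives such an extreme array in about 1 in 20 groups, and 7 were looked at. Without this replicate RPP2A differed by 1.94, and RPP2B by 0.14.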

How the results depend on the processing

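The 7 arrays limit what can be seen. RPP2A stayed between 1.39 and 2.30 in all 17 alternatives, and its sign did not change. With array weights, whose fit stopped before its tolerance was reached, RPP1A (0.31), RPP1B (0.24) and RPP2B (0.18) passed the threshold, so that 4 stalk genes other than RPP2A were higher. With the 3′ to 5′ covariate 0 were, as RPP0 fell short at 0.53 and RPP1A turned to -0.039. Leaving out an array gave 1 to 2 such genes, 0.18 to 0.57 for RPP1A, and 0.18 to 0.57 for the median of the 5 stalk genes. All other alternatives left these calls as they were, the fold limit of 1.5 included. The causes were not tested.

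Calls over all probesets, 795 higher and 942 lower, became 362 and 368 with the one-way ANOVA, 1476 and 1820 with array weights, 30 and 20 with the covariate, 324 and 364 without control replicate 2, 415 and 446 without control replicate 3, 543 and 591 without mine drainage replicate 3 and 511 and 607 without mine drainage replicate 4. Same-numbered cultures share only a number: their deviations correlated at -0.065, -0.177 and 0.082, and not every culture correlated best with its own number. With the replicate number as a block, 432 probesets were higher and 497 lower, and RPP0 differed by 0.60 (adjusted p = 0.0402 from limma), again the 1 stalk gene other than RPP2A past the threshold. The block left 12 RPL, 6 RPS and 0 casein kinase 2 genes higher, and SCH9 fell short (adjusted p = 0.0557 from limma). Each stalk gene has 1 probeset, so using every probeset gave no other value.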

Other observations

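The genes beside the stalk genes on the chromosomes had differences of both signs. RPP2A lies head to head with RPS15, which encodes a small subunit protein, and RPS15 had a mean signal of 11.42 ± 0.14 (SD, n = 4) in mine drainage and 11.43 ± 0.08 (SD, n = 3) in control, a difference of -0.016 (95% interval -0.25 to 0.22, adjusted p = 0.92 from limma) that was 0.0091 after a median shift. On the other side of RPP2A, YOL038C-A had a difference of -0.39 and did not pass. RPP0 lies head to head with VRP1, an actin-binding protein gene, which differed by 0.066 (adjusted p = 0.691 from limma), and next to SPO77, a sporulation gene (-0.19, not past the threshold).

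Of the measured neighbours, all named here, 2 were higher, beside 14.5% of all probesets. COI1, beside RPP2B, was not measured. STF1, a gene of the inhibitor of the mitochondrial ATP synthase, lies next to RPP1B and rose by 0.67 (adjusted p = 0.00606 from limma), also when any single array was left out, but not with the 3′ to 5′ covariate (0.73, adjusted p = 0.0853 from limma). RPL13A, of the large subunit, lies tail to tail with RPP1A and rose by 0.50 (adjusted p = 0.041 from limma), a call lost without control replicate 2 or control replicate 3, among others. THI3, YDL129W and NKP1, the other measured neighbours, had differences of 0.016, 0.25 and -0.23, none past the threshold. No neighbour overlapped a stalk gene in the gene table.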
